A study of Mus musculus with 42 samples.

Results

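Translation initiation and elongation factors are the proteins that load ribosomes onto mRNA and move them along it. Members were the genes whose annotated symbol begins with Eif1 to Eif6 or with Eef1 or Eef2, without the kinases of the Eif2ak family, each read by its probe set of highest mean log2 intensity over all arrays. The rule used names and mean brightness, and no comparison between groups. It gave 54 genes of the 18193 named genes on the array. All 54 passed the filter on dim genes and were among the 15478 genes tested. By role, 4 belonged to eIF1 and eIF1A, 5 to eIF2 and the delivery of the initiator tRNA, 5 to eIF2B, 11 to eIF3, 10 to eIF4, 3 to the proteins that bind eIF4E, 5 to eIF5, eIF5A, eIF5B and eIF6, and 10 to the elongation factors and their modifying enzymes, with 1 gene (Eef1aknmt) in no role group. Eif1, Eif2s1, Eif3g, Eif3j1, Eif3j2, Eif4g1, Eif4e1b, Eif4ebp3 and Eef1g were not analysed here.

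In eukaryotic translation, eIF4E binds the mRNA cap, eIF4A unwinds the leader, and eIF3 holds the small ribosomal subunit while eIF2, bound to GTP, brings the initiator tRNA to it. The exchange factor eIF2B recharges eIF2 with GTP, and 4E-BP proteins hold eIF4E away from the cap complex. After the large subunit has joined, eEF1A delivers each aminoacyl-tRNA, the eEF1B complex recharges eEF1A, and eEF2 moves the ribosome along. Early mouse embryos begin with stored maternal mRNA and replace it with their own transcripts from about the 2-cell stage on.

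Total RNA of preimplantation mouse embryos of the strain B6D2F1 was measured on 42 Affymetrix arrays. One-cell embryos had been injected with a morpholino (MO), an antisense oligomer, against Oct4 (gene symbol Pou5f1), Sall4 or Nanog, or with a control MO without a match in the mouse genome or transcriptome, and were cultured in human tubal fluid medium with serum supplement. At 20 h after injection there were Oct4 MO embryos with uninjected embryos of the Oct4 experiment, Sall4 MO embryos with uninjected embryos of the Sall4 experiment, and Nanog MO, control MO and uninjected embryos of the Nanog experiment. At 44 h there were Oct4 MO, Sall4 MO, control MO and uninjected embryos of 1 joint experiment, and Nanog MO, control MO and uninjected embryos of the Nanog experiment. Each of the 14 groups had 3 arrays. The titles call the arrays of a group biological replicates, but nothing says that they came from separate cultures, so the p-values here reflect array-to-array spread, which may be technical. The number and sex of the embryos on each array, and whether each MO blocks translation or splicing, are not given in the sources used here. In RNA of whole embryos, fewer cells of a type and less RNA per cell cannot be told apart.

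The 18 arrays of the Nanog experiment had median intensities of 193 to 227 and the other 24 of 26.1 to 33.3, so each injection was compared within its own experiment and time. Pou5f1 mRNA was lower in Oct4 MO embryos at 44 h (log2 change −0.82, limma adjusted p = 0.003229) and not at 20 h (0.22). Sall4 mRNA in Sall4 MO embryos (0.00 at 20 h, 0.21 at 44 h) and Nanog mRNA in Nanog MO embryos (−0.29 and −0.61) did not pass the test, and a blocking oligomer need not lower its target's mRNA. All 8 markers of the preimplantation embryo were on the array, but not all were bright. Outside the Nanog experiment, group means were 7543 to 8963 for Dppa3, 17.57 to 1868 for Tdgf1 and 14.87 to 71.73 for Utf1. Markers of the 2-cell stage, transcripts made briefly at that stage, stood on the array for 5 of 8 genes. Their summed intensity per array at 44 h was 1071 to 1692 in control MO, 5049 to 6235 in Oct4 MO and 2508 to 4772 in Sall4 MO embryos, and 3834 to 6338 in control MO and 6889 to 16590 in Nanog MO embryos of the Nanog experiment.

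The promoters of 6 members are shown, chosen from the members with the largest or most repeated falls described next. RefSeq's table (GRCm38.p6) held a promoter for 43 of the 54 members, among them 10 of the 11 that were lower with Oct4 MO at 44 h. The windows cover 50 bases before the start site and 20 from it, 5′ to 3′ on the gene's strand. Capitals mark a run of 7 or more C or T that touches the span from 20 before to 20 after the start, or CCGGAA on either strand (TTCCGG on the other). The windows lie at chrX:94212632-94212701 (minus strand) for Eif2s3x, chrY:1010545-1010614 (plus) for Eif2s3y, chr1:131153157-131153226 (plus) for Eif2d, chr5:140419255-140419324 (plus) for Eif3b, chr3:138526141-138526210 (plus) for Eif4e and chr1:63176781-63176850 (plus) for Eef1b2.
Eif2s3x: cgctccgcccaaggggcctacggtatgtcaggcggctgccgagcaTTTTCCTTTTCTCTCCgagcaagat
Eif2s3y: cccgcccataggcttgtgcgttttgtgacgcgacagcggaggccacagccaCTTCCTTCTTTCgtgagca
Eif2d: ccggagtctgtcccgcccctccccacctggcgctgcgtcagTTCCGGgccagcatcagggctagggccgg
Eif3b: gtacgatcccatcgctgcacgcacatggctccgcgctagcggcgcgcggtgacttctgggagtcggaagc
Eif4e: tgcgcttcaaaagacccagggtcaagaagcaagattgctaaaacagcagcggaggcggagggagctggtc
Eef1b2: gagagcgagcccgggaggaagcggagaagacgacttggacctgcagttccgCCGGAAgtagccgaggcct

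A pyrimidine run at the start is seen in Eif2s3x and Eif2s3y, and CCGGAA, the core letters bound by ETS factors, in Eif2d and Eef1b2. The Eif3b and Eif4e windows hold neither. Over the full 300 bases of each promoter (250 before the start to 50 after it, both strands), CCGGAA was found in 19 of the 43 members (44.2%) and in 15.2% of all 27025 promoters of that length. It was found in 3 of the 10 members lower with Oct4 MO at 44 h. The run of C or T was searched only from 20 before to 20 after the start, on the gene's strand. It was found in 15 of 43 members (34.9%) against 24.2% of all promoters, and in 4 of those 10. Over the full 300 bases, the octamer ATTTGCAT, letters that Oct4 can bind, was in none of the 43 and in 1.75% of all promoters. These matches describe letters in these spans only.

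At 44 h, Oct4 MO embryos had less mRNA of 11 of the 54 factors than control MO embryos, and more of 1. The falls reached 3 of the 5 members around eIF2, 2 of the 11 eIF3 subunits, the cap-binding gene Eif4e, and Eef1b2 and 2 more of the 10 elongation genes. The 5 largest changes were −3.61 to −2.74 on the log2 scale. Over all genes tested, 11.6% passed the test in this comparison, 6.18% lower and 5.38% higher, and among members 22.2% passed. The median change of the members was −0.23 and that of all genes 0.02, with 40 members below 0 and 14 above. Changes are differences of mean log2(intensity + 16), which understates changes of dim genes, and an exact test of 3 arrays against 3 could not go below p = 0.1, so limma with Benjamini-Hochberg adjustment over all genes is quoted throughout.

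**Figure D1:**
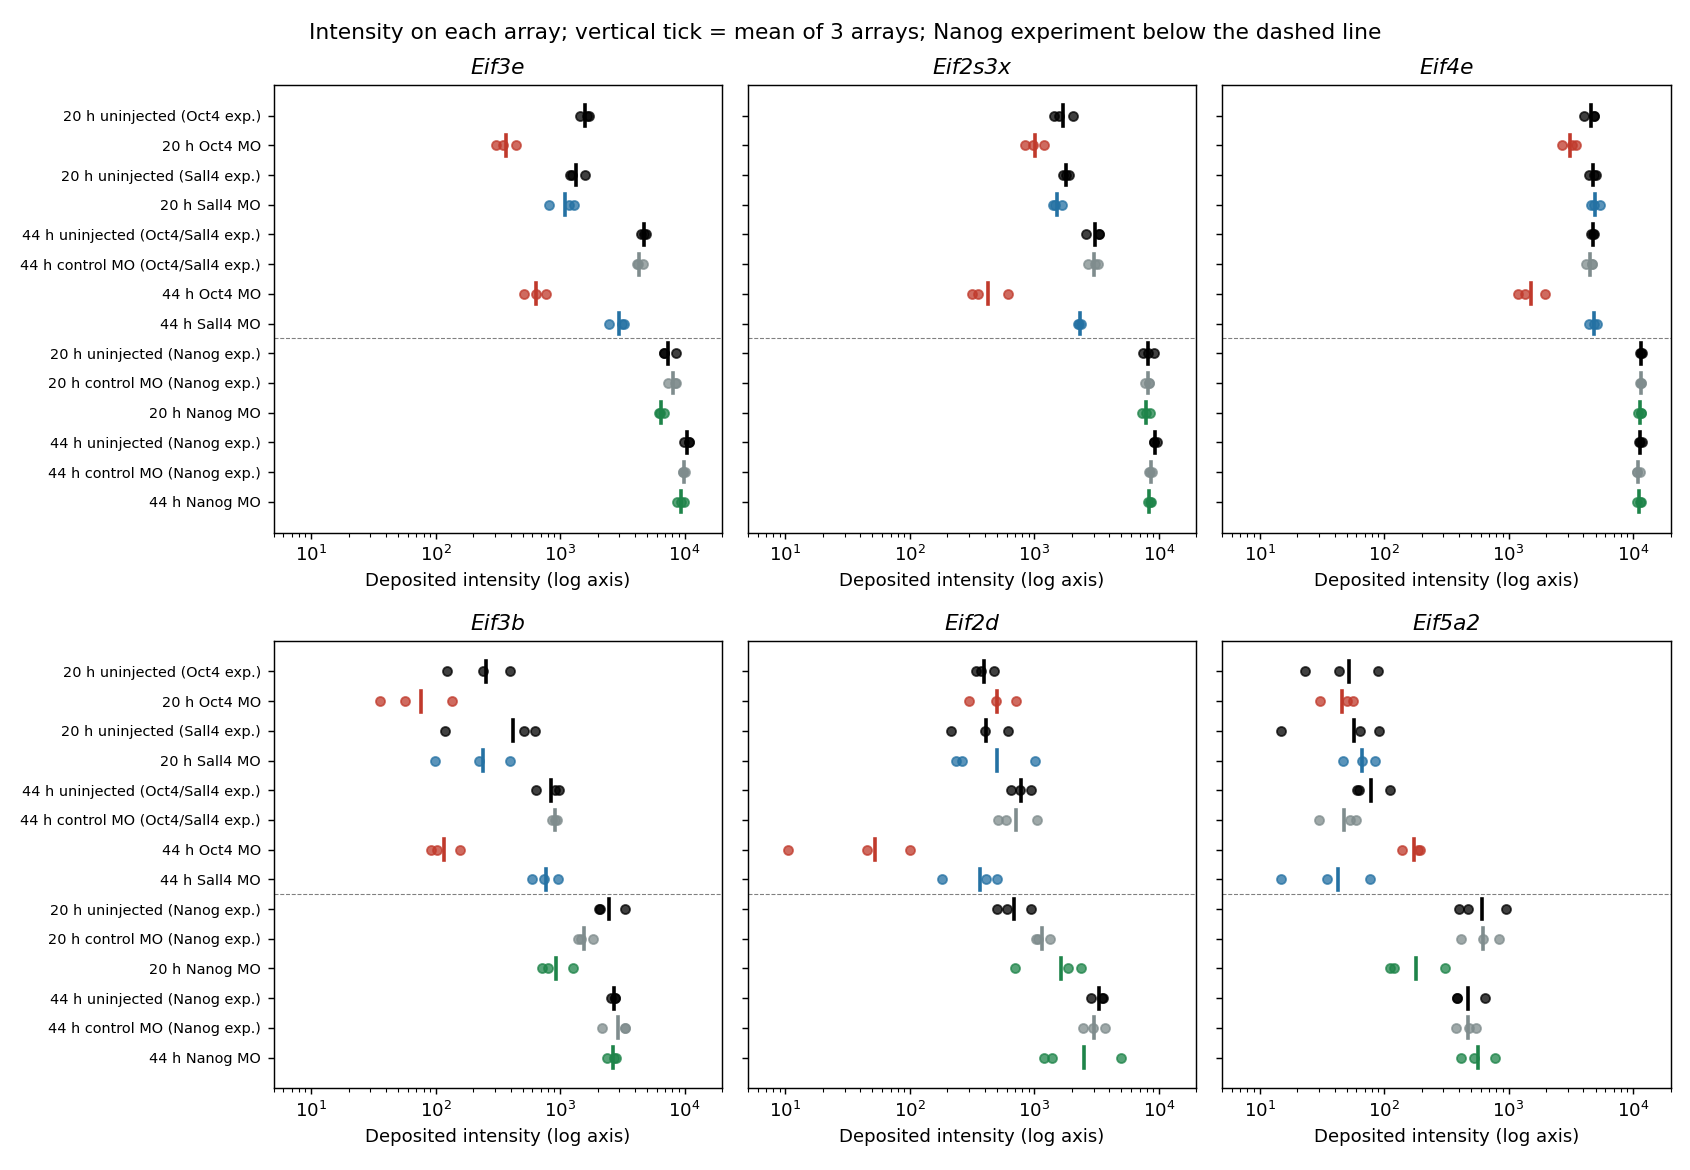
Deposited intensity (log axis) of 6 members, 1 panel each, on every array of the 14 groups; each dot is 1 array and each tick the mean of 3 arrays. In the 44 h joint experiment the Oct4 MO arrays of Eif3e, Eif2s3x, Eif4e, Eif3b and Eif2d lie below those of the other 3 groups, and those of Eif5a2 above them.

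Eif2s3x and Eif2s3y encode the gamma subunit of eIF2, which carries GTP and the initiator tRNA, from the X and the Y chromosome. Eif2s3x read 3242, 3050 and 2702 in the 3 control MO arrays and 351, 314 and 619 in the 3 Oct4 MO arrays. The groups did not overlap, and the change was −2.82 ± 0.18 (SE, n = 3 and 3, limma adjusted p = 1.408e-12). The SE values here and below use each gene's within-group variance pooled over all arrays, not the spread of the compared groups alone. Eif2s3y read 298, 419 and 587 in control MO and 89.4, 38.0 and 25.1 in Oct4 MO embryos. Its groups were also apart (−2.82 ± 0.62, adjusted p = 0.002579). Whether the probes of these near-identical genes read both transcripts was not tested. Eif2s2, the beta subunit, changed by 0.03 and did not pass the test.

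Eif2d, which can deliver initiator tRNA without GTP and helps to recycle ribosomes, had the largest fall of any member in this comparison. It read 595, 509 and 1052 in control MO and 10.5, 101 and 45.0 in Oct4 MO embryos (−3.61 ± 0.55, adjusted p = 3.354e-05). The brightest Oct4 MO array was still far under the dimmest control array. The next brightest probe set of the gene gave −0.74 and the one after it −3.08, and the 3 dimmest gave −0.36, −0.29 and 0.98, so the size depends on which probes are read. Denr, whose product works with Mcts1 in the same delivery and recycling step, is no member and also fell (−1.42, adjusted p = 2.581e-06). Of the 5 eIF2B subunits, Eif2b5, the catalytic one, read 1696, 1996 and 2552 in control MO and 891, 1687 and 1198 in Oct4 MO embryos. These ranges almost touched (−0.75 ± 0.23, adjusted p = 0.0288). The Eif2b5 call was lost without control MO array 2 (adjusted p = 0.0685) or 3 (0.16), without Oct4 MO array 1 (0.194) or 3 (0.0708), and under quantile normalization (0.0859).

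In eIF3, 2 subunits fell and 9 did not pass the test. Eif3e (chr15:43250040-43282736), a subunit of the outer part of the complex, read 4192, 4672 and 4154 in control MO and 773, 515 and 645 in Oct4 MO embryos. No array of one group came near the other (−2.74 ± 0.17, adjusted p = 1.408e-12), and its 2 other bright probe sets gave −3.15 and −2.99. Eif3b, a core subunit and scaffold, read 936, 910 and 864 against 156, 91.4 and 102. The control arrays lay within a narrow band, with the Oct4 MO arrays well below it (−2.82 ± 0.45, adjusted p = 6.14e-05). The nearest of the other subunits was Eif3d, whose product binds the cap of some mRNAs (−0.93, adjusted p = 0.06342). Eif3a, the largest core subunit, changed by 0.08 and Eif3c, also of the core, by −0.22.

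Within eIF4, Eif4e and Eif4a1 fell and their paralogs did not pass the test. Eif4e, the cap-binding protein, read 4682, 4647 and 4206 in control MO and 1957, 1353 and 1199 in Oct4 MO embryos. The groups were apart by more than the spread within either (−1.61 ± 0.14, adjusted p = 5.741e-09). Its other probe sets gave −1.16 and −2.38 where bright and 0.09 where dim. Eif4e2, a cap-binding paralog found in repressive complexes, changed by −0.58, and Eif4e3, another cap-binding form, by 0.84 (adjusted p = 0.19). Eif4a1, the main helicase, read 3983, 4080 and 3975 against 2897, 2893 and 2554, a small and even fall (−0.53 ± 0.12, adjusted p = 0.00269) that was lost under quantile normalization (0.117). Eif4a2, its close paralog, changed by −0.15, and the scaffold genes Eif4g2 and Eif4g3 by −0.18 and −0.07. None of the 3 genes whose products bind eIF4E passed the test. Eif4ebp2 read 397, 682 and 471 in control MO and 468, 775 and 1270 in Oct4 MO embryos, which overlap (0.60).

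Eif5a2 was the only member higher with Oct4 MO at 44 h. It encodes the second form of eIF5A, a hypusine-bearing factor that helps ribosomes through difficult peptide bonds. Control MO arrays read 59.8, 53.1 and 30.1 and Oct4 MO arrays 196, 187 and 140, with no overlap (1.60 ± 0.44, adjusted p = 0.0153). The uninjected arrays of the same day read 112, 63.2 and 61.1, between the groups, and against them the change was 1.03 and did not pass. The call was also lost without control MO array 3 (adjusted p = 0.0842) or Oct4 MO array 1 (0.051), and the gene's other probe set gave −0.17. The common form, Eif5a, changed by −0.38 (adjusted p = 0.065).

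Of the 10 elongation genes, 3 fell, and 9 lay below 0 with a median of −0.80. Eef1b2, the exchange factor that recharges eEF1A, read 4004, 4243 and 4392 in control MO and 2237, 2641 and 2021 in Oct4 MO embryos (−0.88 ± 0.20, adjusted p = 0.002938). Every Oct4 MO array was lower than every control array. Eef1e1, a scaffold of the multi-synthetase complex, read 1023, 1083 and 1031 against 405, 257 and 594 (−1.36 ± 0.40, adjusted p = 0.0216). Its call was lost when control MO array 1, 2 or 3 was left out (0.0537, 0.0682 and 0.0562) and without Oct4 MO array 2 (0.129). Eef2kmt, which methylates eEF2, read 104, 252 and 207 against 1.43, 51.0 and 51.7, again without overlap (−2.17 ± 0.49, adjusted p = 0.003192). Neither Eef1a1 (−0.17) nor its much dimmer paralog Eef1a2 (−0.37) passed the test.

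Against uninjected embryos of the same experiment in place of control MO embryos, all 11 falls passed the test again, from −3.78 for Eif2d to −0.41 for Eif4a1. Eif3d (−1.02), Eif4b (−0.50), a helper of the helicase, and Eif5a (−0.42) passed as well. With the 44 h arrays of the joint experiment alone in the fit, Eef1b2 (adjusted p = 0.0676), Eef2kmt (0.0694), Eif4a1 (0.0821) and Eif2b5 (0.179) lost the call. Eif2d, Eif2s3x, Eif2s3y, Eif3b, Eif3e and Eif4e kept it under all 16 settings. The 5 markers of the 2-cell stage on the array were all higher in these Oct4 MO embryos, and their part in the falls was not tested. Of markers of cumulus and granulosa cells, 9 of 10 were on the array, their sum per array was 2248 to 2792 in control MO and 1337 to 1541 in Oct4 MO embryos, and 8 of the 9 averaged under 16 in control MO embryos, Nr5a2 carrying the sum. Of blood and stroma markers, 6 of 7 were on the array, with sums of 188.7 to 451.1 and 273.4 to 608.0. The part of either list in the falls was not tested.

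**Figure D2:**
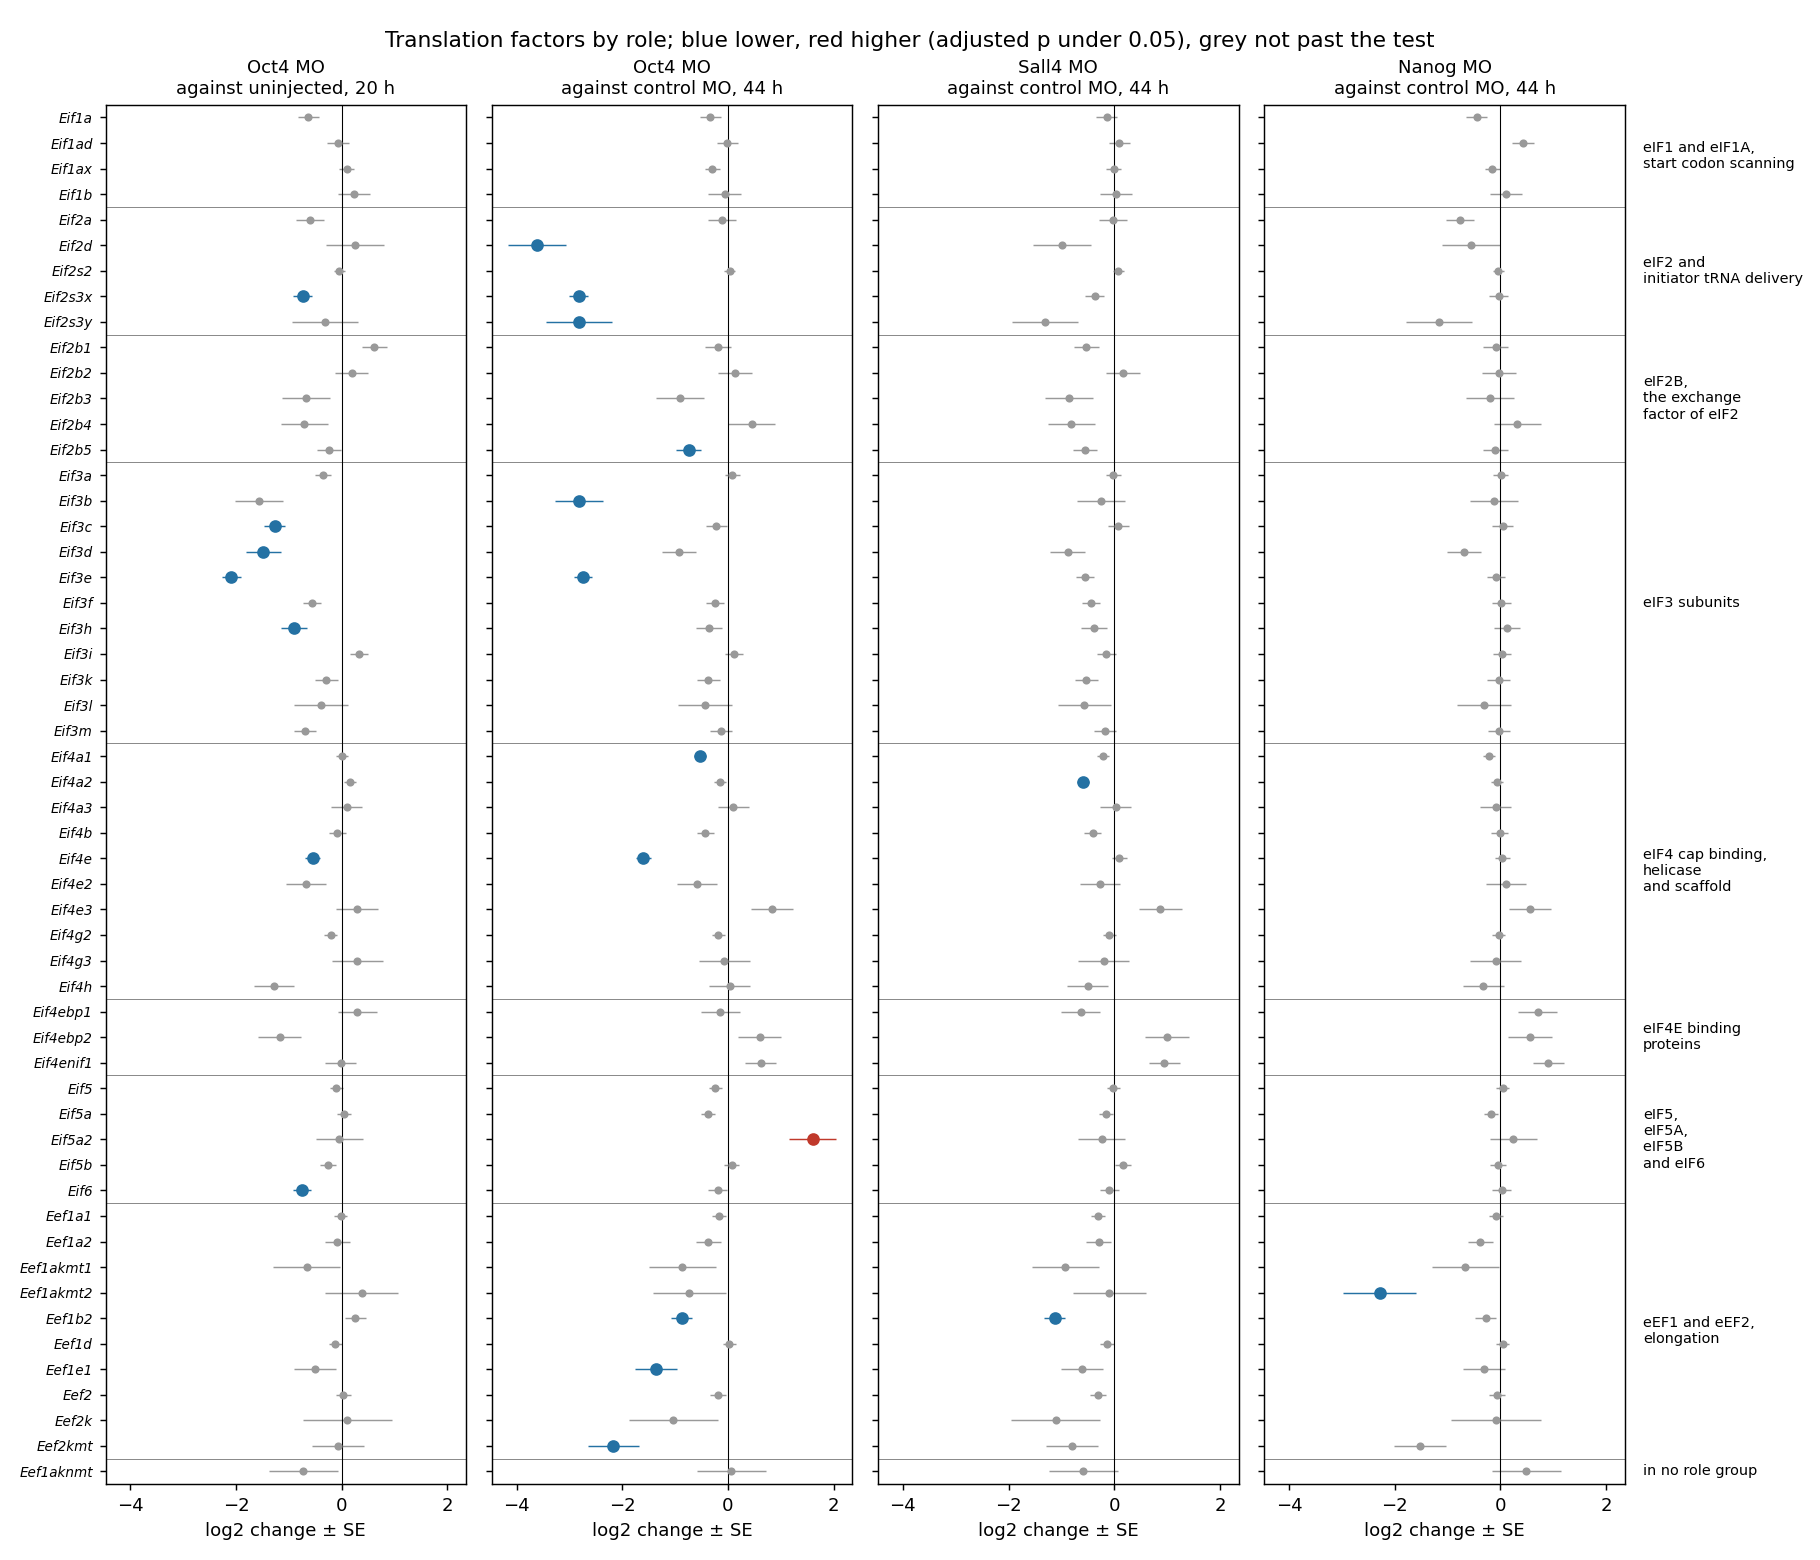
Log2 change ± SE of the 54 members, 1 row per gene grouped by role, in 4 panels (Oct4 MO at 20 h against uninjected, then Oct4 MO, Sall4 MO and Nanog MO at 44 h against control MO); blue (lower) and red (higher) points passed limma at an adjusted p under 0.05, and grey points did not. Coloured points number 7, 12, 2 and 1 from left to right, and the eIF3 rows hold 4 of the 7 at 20 h.

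At 20 h, Oct4 MO embryos had less mRNA of 7 members than the uninjected embryos of their experiment, and more of none. The falls were in 4 of the 11 eIF3 subunits, in Eif2s3x, in Eif4e and in Eif6. In this comparison 2.02% of all genes passed, 1.84% lower and 0.174% higher, and 13% of the members. The eIF3 subunits had a median of −0.69 with 10 of 11 below 0, the median of all members was −0.16 and that of all genes −0.02. No elongation gene passed. No control MO was injected in the Oct4 experiment at 20 h, so an effect of the MO and one of injection cannot be told apart there.

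Eif3e read 1695, 1433 and 1632 in uninjected and 346, 304 and 445 in Oct4 MO embryos at 20 h. It was low on every Oct4 MO array (−2.09 ± 0.17, adjusted p = 5.849e-09), and this call held under all 16 settings. Eif3c, a core subunit that binds eIF1 and eIF5, read 4428, 3422 and 4394 against 2401, 1434 and 1371 (−1.26 ± 0.20, adjusted p = 0.0002415). Its 3 other probe sets gave −1.50, −1.37 and −1.37, close to the one used. Eif3d read 446, 490 and 531 against 140, 179 and 177, with tight groups far apart (−1.48 ± 0.33, adjusted p = 0.011). Eif3b overlapped at this time: it read 398, 123 and 241 in uninjected and 136, 35.7 and 56.3 in Oct4 MO embryos (−1.57, adjusted p = 0.063).

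The other 4 falls at 20 h were smaller and less stable. Eif2s3x read 2035, 1442 and 1585 in uninjected and 1199, 846 and 971 in Oct4 MO embryos (−0.74 ± 0.18, adjusted p = 0.021). Eif6, which keeps the large subunit from joining too soon, read 3128, 2463 and 3004 against 2257, 1196 and 1784 (−0.75 ± 0.18, adjusted p = 0.017). In these genes the groups did not overlap, but the gap between them was narrow. Eif3h, an outer subunit, read 1981, 1569 and 1904 against 1021, 681 and 1256 (−0.91 ± 0.24, adjusted p = 0.044). Eif4e read 4850, 4065 and 4850 against 3507, 2678 and 3235 (−0.55 ± 0.14, adjusted p = 0.035). When all probe sets of a gene were averaged, Eif3h and Eif4e turned to 0.15 and 0.10, and Eif6 (−0.031, adjusted p = 1), Eif3d (−0.70, 0.273) and Eif2s3x (−0.69, 0.0539) lost the call.

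Single arrays decided several of these calls. Without uninjected array 1, 3 members passed in place of 7, without uninjected array 3 it was 2, without Oct4 MO array 2 it was 3, and without Oct4 MO array 1 it was 13. Eif3d lost its call without uninjected array 3 (adjusted p = 0.0652). Without uninjected array 1, uninjected array 3 and Oct4 MO array 2, the adjusted p of Eif2s3x was 0.22, 0.0652 and 0.155, that of Eif3h 0.222, 0.165 and 0.326, that of Eif4e 0.193, 0.167 and 0.24, and that of Eif6 0.129, 0.0971 and 0.221. Without Oct4 MO array 3, Eif2s3x (0.0861) and Eif4e (0.0853) lost the call too. With the 6 arrays of this experiment alone, 1 member passed, Eif3e. The 2-cell-stage sum was 10220 to 13260 in Oct4 MO and 10060 to 10860 in uninjected embryos at 20 h, and none of the 5 markers passed.

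Eif2s3x, Eif3e and Eif4e were called lower with Oct4 MO at both times. These 3 are 42.9% of the 7 members lower at 20 h and 27.3% of the 11 lower at 44 h. Over all genes, 65 were lower at both times, 22.8% of the 285 lower at 20 h and 6.79% of the 957 lower at 44 h. The 2 comparisons share no array, but their controls differ in kind, and the difference between times was not tested. At 20 h the Eif3e call was kept in all 16 settings, that of Eif2s3x in 8 and that of Eif4e in 7. The other probe sets of Eif4e gave 0.03, 0.25 and 0.69 at 20 h, so its fall at that time depends on the probe set read.

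In Sall4 MO embryos at 44 h, 2 members fell against control MO embryos and none rose. Eef1b2 read 1982, 1314 and 2712 in Sall4 MO embryos, below all 3 control arrays given above (−1.13 ± 0.20, adjusted p = 0.00078). Eif4a2, a helicase paralog, read 2122, 1885 and 1847 against 2734, 3019 and 3056 in control MO embryos, with no overlap (−0.59 ± 0.11, adjusted p = 0.002). In this comparison 3.97% of all genes passed, 2.13% lower and 1.83% higher, and 3.7% of the members, which is near that background. The members' median was −0.26 against −0.02 for all genes, with 43 of 54 below 0, and all 10 elongation genes lay below 0. Neither call held with the joint experiment's arrays alone (adjusted p = 0.0747 and 0.135), and that of Eif4a2 was lost under quantile normalization (0.0815). Against uninjected embryos in place of control MO embryos, Eef1b2 (−1.20) and Eif4a2 (−0.59) passed again. Eif3e (−0.67, adjusted p = 0.01479) and Eif3k (−0.72, 0.03827) then passed as lower too, and Eif4enif1 (1.02, 0.03012) as higher. Markers of the 2-cell stage passed for 2 of 5 genes, and their part was not tested.

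The Oct4 MO and Sall4 MO groups at 44 h share the control MO arrays, so their changes are set side by side only. Eif3e changed by −2.74 with Oct4 MO and −0.56 with Sall4 MO (adjusted p = 0.06372), having read 3168, 2450 and 3266 in Sall4 MO embryos. Against uninjected embryos, its change was −2.85 with Oct4 MO and −0.67 with Sall4 MO, past the test in both. Eif2s3x read 2382, 2296 and 2264 and Eif4e 5176, 4854 and 4451 in Sall4 MO embryos, where their changes were −0.37 and 0.10. Neither passed in Sall4 MO embryos. Eif3b read 958, 599 and 747 (−0.26) and Eif2d 505, 180 and 409 (−0.99), both also short of the test. Eef1b2 changed by −0.88 with Oct4 MO and −1.13 with Sall4 MO, past the test in both.

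Compared directly with Sall4 MO embryos, Oct4 MO embryos were lower in 5 members and higher in 2, where 7.07% of all genes passed, 3.36% lower and 3.71% higher. Lower were Eif2d (−2.62, adjusted p = 0.002451), Eif3b (−2.57, 0.0003847), Eif2s3x (−2.45, 8.325e-11), Eif3e (−2.18, 6.295e-10) and Eif4e (−1.70, 1.625e-09). Higher were Eif5a2 (1.84, adjusted p = 0.007886) and Eif4a2 (0.43, 0.0159). Eef1b2 did not pass between the injections (0.25). The Eif4a2 call was lost without Oct4 MO array 3 (0.058), Sall4 MO array 2 (0.0555) or Sall4 MO array 3 (0.0592), and that of Eif5a2 without Sall4 MO array 2 (0.0714) or with the mean of its probe sets (0.45). Eif2d missed the threshold with the mean of its probe sets (0.051).

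Nanog MO embryos at 44 h differed from control MO embryos in 1 member. Eef1akmt2, which methylates eEF1A, read 159, 375 and 586 in Nanog MO and 1097, 2672 and 1589 in control MO embryos (−2.29 ± 0.69, adjusted p = 0.0484). The groups did not overlap, yet the call was lost in 9 of 16 settings, among them the arrays left out singly: control MO array 1 (0.0545), 2 (0.214) or 3 (0.0917) and Nanog MO array 1 (0.256) or 2 (0.086). Here 5.01% of all genes passed, 1.56% lower and 3.44% higher, against 1.85% of the members. The members' median was −0.06, with 35 of 54 below 0.

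At 20 h, no member passed with Nanog MO, where 0.62% of all genes did. An unadjusted p under 0.05 was seen for 7 members, with no share of all genes at that threshold given beside it. Eif5a2 came nearest: it read 112, 306 and 120 in Nanog MO and 832, 626 and 414 in control MO embryos, with no overlap (−1.79, limma adjusted p = 0.0504). In Nanog MO embryos at 44 h it read 524, 417 and 773. The second nearest was Eif2a, an alternative carrier of initiator tRNA (−0.81, adjusted p = 0.23).

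No member passed with Sall4 MO at 20 h either, where 0.233% of all genes did. In limma 10 members had an unadjusted p under 0.05, again with no share of all genes at that threshold, so nothing is read from the count. Eif4a1 read 2315, 2380 and 2151 in Sall4 MO and 2766, 3351 and 3352 in uninjected embryos, apart but short of the test (−0.46, adjusted p = 0.0767). Eif1ax, a scanning factor, changed by 0.41 (0.265). Eif3e, low with Oct4 MO at this time, read 1188, 1299 and 813 with Sall4 MO and 1586, 1244 and 1196 in uninjected embryos, which overlap.

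Control MO embryos did not differ from uninjected embryos in any member by limma. The unadjusted p was under 0.05 for 1 member in the Nanog experiment at 20 h. It was so for 0 members in the joint experiment at 44 h and for 2 in the Nanog experiment at 44 h. Of all genes, 0.0905%, 0.0969% and 0.349% passed at an adjusted p under 0.05, and no share at the unadjusted threshold is given. The members with the smallest p were Eef1a2 (−0.55, adjusted p = 0.724) and Eef1e1 (0.67) at 20 h, Eif4h (−0.63) and Eef2kmt (0.67) in the joint experiment, and Eef1aknmt (1.53, 0.366) and Eef2kmt (1.03) in the Nanog experiment at 44 h.

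Between 20 h and 44 h, uninjected embryos of the Nanog experiment gained mRNA of 15 members and lost that of 3. The gains lay in every role group but the eIF4E-binding proteins and the group of eIF5, eIF5A, eIF5B and eIF6, and the losses were Eef2k, Eif4e3 and Eif4enif1. Over all genes 25.6% passed, 9.28% higher and 16.3% lower, and among members 33.3% passed. The members' median was 0.22 and that of all genes 0.02, with 43 of 54 members above 0. All 11 eIF3 subunits lay above 0 with a median of 0.43, and 4 of them passed.

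Eif3d rose most firmly, from 1292, 1508 and 1057 at 20 h to 6025, 5810 and 4855 at 44 h (2.11 ± 0.33, adjusted p = 1.076e-05). Every 44 h array was several times above every 20 h array. Eif2d rose from 604, 943 and 500 to 3514, 2834 and 3549 (2.29, adjusted p = 0.002018), and Eif3l, an outer eIF3 subunit, from 1159, 1853 and 1008 to 4311, 5330 and 4520 (1.85, 0.006643). Eef1akmt1, a methyltransferase of eEF1A, rose from 689, 559 and 319 to 3162, 2858 and 3017 (2.56, 0.002669). Eif1a, which helps the ribosome to scan, rose from 3803, 4404 and 3120 to 7681, 7772 and 7517 (1.03, 0.0001858). None of these groups overlapped. The other gains were Eif2b3 (1.77), Eef1e1 (1.58), Eif4h (1.36), Eif3k (0.80), Eef1b2 (0.79), Eif2b1 (0.68), Eif3e (0.51), Eef2 (0.47), Eif1ax (0.45) and Eef1a1 (0.35). Dimmer probe sets of Eif1ax gave far larger gains (3.36 and 4.11), as did that of Eif1a (3.08), while those of Eif2d ran from 0.40 to 2.26. When probe sets were averaged, Eef2 (0.16, adjusted p = 0.423) and Eif3e (0.38, 0.0715) lost the call.

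The largest change with time was a loss. Eef2k encodes the kinase that slows elongation by phosphorylating eEF2, and it fell from 7631, 7106 and 7965 to 261, 804 and 370 (−4.09 ± 0.85, adjusted p = 0.0004312). Eif4e3 fell from 10750, 11091 and 10901 to 2065, 3742 and 2546 (−2.01 ± 0.40, 0.0002714). Eif4enif1, the eIF4E transporter that moves eIF4E and holds mRNAs silent, fell from 3320, 5003 and 4661 to 2457, 1443 and 1587 (−1.25 ± 0.30, 0.001687). In all 3 genes the 44 h arrays lay below all 20 h arrays. Other probe sets of Eef2k gave −1.64 and −5.15 and that of Eif4e3 −4.06.

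**Figure D3:**
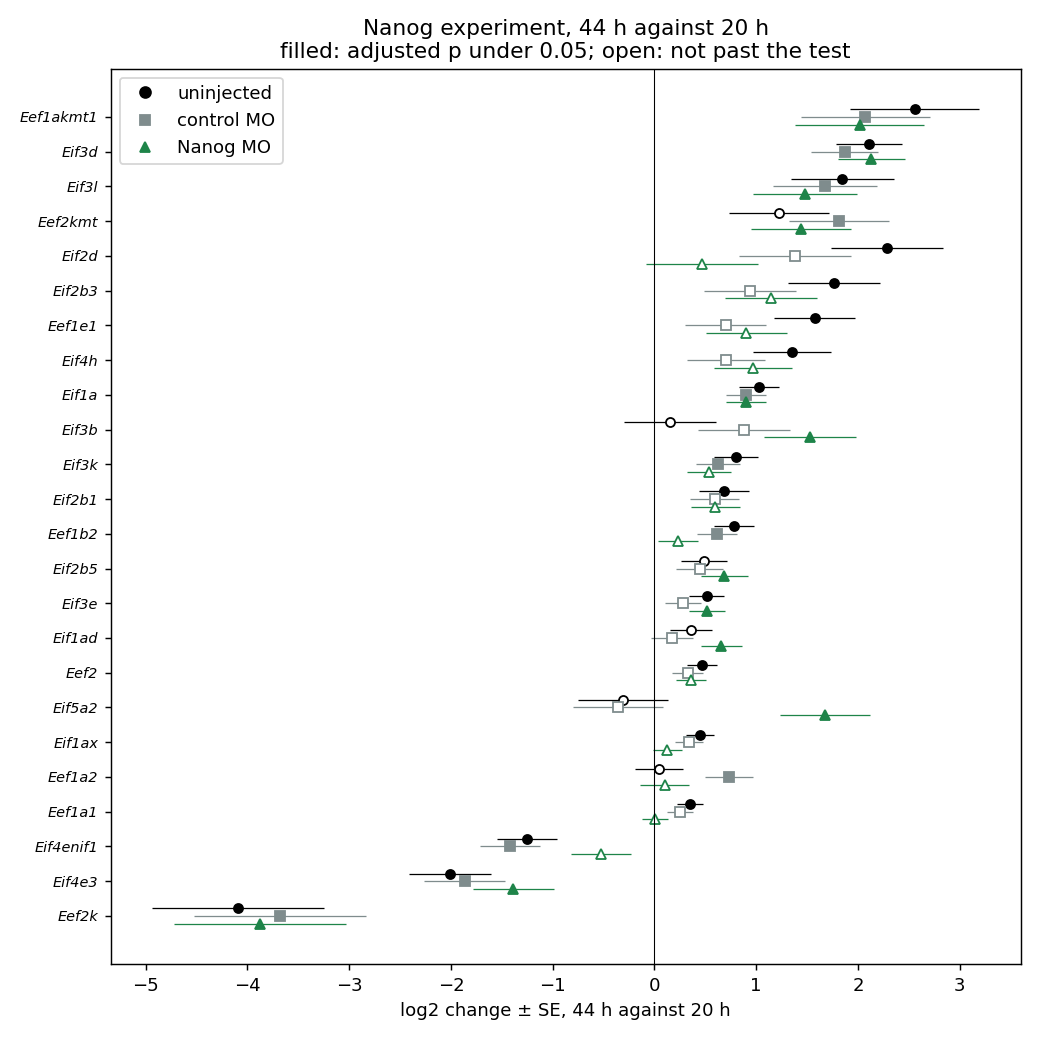
Log2 change ± SE from 20 h to 44 h of the 24 members that passed in any of 3 arms of the Nanog experiment (uninjected, control MO and Nanog MO embryos); filled symbols passed limma at an adjusted p under 0.05 and open ones did not. Eef2k lies far left in all 3 arms and Eif3d and Eef1akmt1 right, and Eif5a2 lies right of 0 in the Nanog MO arm (1.68) and left of 0 in the others.

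The control MO arm had 8 members higher and 3 lower with time (7.17% and 16.2% of all genes, 23.3% in all), and the Nanog MO arm 10 higher and 2 lower (8% and 11.8%, 19.8% in all). The 3 arms hold different arrays. Eef1akmt1, Eif1a, Eif3d and Eif3l were higher and Eef2k and Eif4e3 lower in all 3 arms. These are 4 of the 21 members called higher in any arm and 2 of the 3 called lower. Among the 15478 genes tested, 471 of the 2271 called higher in any arm were higher in all 3. For genes called lower it was 1136 of 3516. By sign alone, 34 members lay above 0 and 6 below 0 in all 3 arms. No share of all genes is given for these sign counts, so nothing is read from them. In the Nanog MO arm the times overlapped for Eef1akmt1, which read 233.55, 1549.54 and 236.01 at 20 h and 1293.23, 1689.62 and 2907.21 at 44 h. Eif3d changed by 2.11, 1.87 and 2.13 and Eef2k by −4.09, −3.68 and −3.88 in uninjected, control MO and Nanog MO embryos. Eif4enif1 passed in the first 2 arms (−1.42 in control MO embryos), and Eif5a2 in the Nanog MO arm (1.68, adjusted p = 0.006551). The Eif5a2 call was lost when its probe sets were averaged (0.81, adjusted p = 0.179), the other probe set having given −0.053. The difference of the time change between Nanog MO and control MO embryos passed for no member and for 0.827% of all genes. Its unadjusted p in limma was under 0.05 for 3 members, with no share of all genes at that threshold given. Eif5a2 had the smallest p (2.04, adjusted p = 0.1395) and Eif4a2 the next (−0.37, 0.36).

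In uninjected embryos 11 of the 18 time calls held under all 16 settings. The 7 others were small gains, apart from Eef1e1 and Eif4h, which lost the call without 20 h array 3 (adjusted p = 0.0648 and 0.0689). Leaving out 20 h array 1, 20 h array 3, 44 h array 1 or 44 h array 2 gave Eif3e 0.101, 0.0955, 0.0753 and 0.0796, Eif2b1 0.142, 0.0686, 0.1 and 0.12, and Eef1a1 0.101, 0.111, 0.0788 and 0.125, and Eef1a1 was also lost without 44 h array 3 (0.0616). Eef2 was lost without 20 h array 1 (0.0609) or 2 (0.0556) or 44 h array 1 (0.0533) or 2 (0.0756), and Eif1ax without 20 h array 1 (0.0574) or 3 (0.0723) or 44 h array 2 (0.0588). Among the genes of all 3 arms, Eef1akmt1 lost the call without control MO array 3 of 20 h (0.174) or 2 of 44 h (0.0602) and without Nanog MO array 1 (0.131) or 3 (0.129) of 20 h or 3 of 44 h (0.11). Eif3l lost it without control MO array 1 of 20 h (0.0835) or 2 of 44 h (0.0539) and without Nanog MO array 1 (0.158) or 3 (0.0611) of 20 h or 2 (0.0891) or 3 (0.111) of 44 h, and Eif4e3 without Nanog MO array 3 of 44 h (0.141). In the Nanog MO arm 7 members passed without 20 h array 3 and 6 without 44 h array 3, and in the control MO arm 7 without 44 h array 2. Under quantile normalization the control MO arm had 23 higher and 3 lower in place of 8 and 3.

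Outside the Nanog experiment, uninjected embryos of 44 h belong to another experiment than those of 20 h, so values are given without a test. All 15 gains and all 3 losses had the same direction there, with the 3 arrays of 44 h apart from all 6 of 20 h. The share of such a separation among all genes that passed the time test is not given here. This separation was common: 31 of the 54 members (57.4%) lay higher and 3 (5.56%) lower at 44 h, against 17.7% and 21.8% of all genes. Eef2k averaged 4318 and 4820 in the uninjected groups of 20 h and 191.7 ± 154 (SD, n = 3) at 44 h. Eif4e3 averaged 3778 and 2934 at 20 h and read 176, 198 and 440 at 44 h.

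Of the 11 members that were lower with Oct4 MO at 44 h, 4 rose with time in uninjected embryos of the Nanog experiment (Eif2d, Eif3e, Eef1e1 and Eef1b2) and none fell. This is 36.4% of the 11, against 21.8% of the 957 genes lower with Oct4 MO at 44 h that rose and 8.67% that fell. Of all 54 members, 15 rose and 3 fell with time in those embryos, and whether the 11 differ from the other members was not tested. The 2 comparisons share no array. Eif2s3x, Eif3b and Eif4e, with large falls in Oct4 MO embryos, did not pass the test of the time change in these uninjected embryos. Eif3b did pass in the Nanog MO arm (1.53, limma adjusted p = 0.01477). In uninjected embryos outside the Nanog experiment, the untested change with time was 1.52 for Eif3b, 0.82 for Eif2s3x and 0.03 for Eif4e. There the 44 h arrays of Eif3b and Eif2s3x lay above all 20 h arrays, as for 57.4% of members and 17.7% of all genes. Those of Eif4e did not. The 5 markers of the 2-cell stage were all lower at 44 h than at 20 h in uninjected embryos and all higher with Oct4 MO at 44 h, and their part in either set of changes was not tested.

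**Figure D4:**
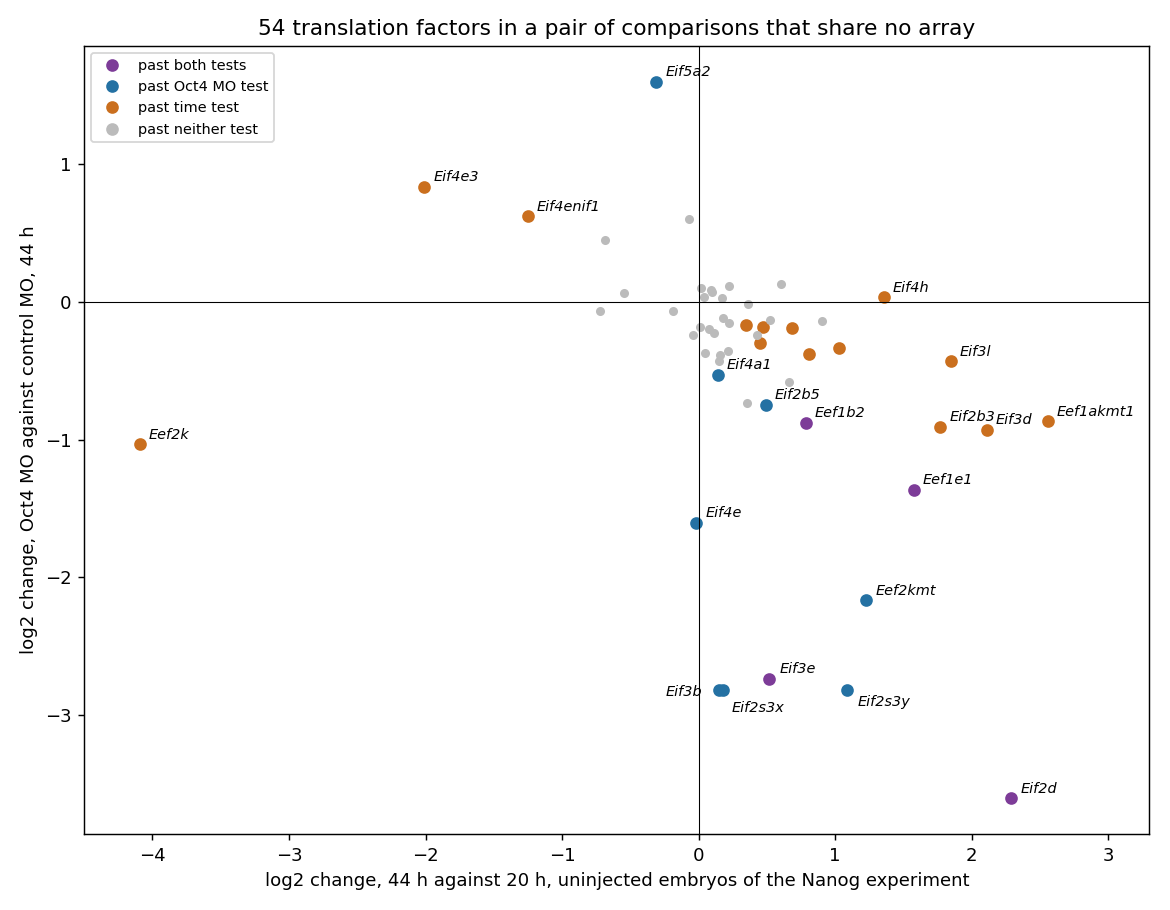
Log2 change of each of the 54 members from 20 h to 44 h in uninjected embryos of the Nanog experiment (horizontal axis) against its log2 change with Oct4 MO at 44 h (vertical axis), coloured by which of the tests it passed; the comparisons share no array. Eif2d lies at lower right (2.29 and −3.61), Eif2s3x, Eif3b, Eif3e and Eif4e low and near the middle, and Eef2k far left (−4.09).

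Members differed widely in how far they varied between groups. Over the 8 groups of the Oct4 and Sall4 experiments, the range of group means had a median of 1.77 log2 among members and 1.58 among all genes. It ran from 0.43 for Eif2s2 to 5.25 for Eef2k, and was under 1 log2 for 17 members (31.5%), against 28% of all genes. Over the 6 groups of the Nanog experiment the median range was 0.69 against 1.11. The lowest of the 8 group means was at 20 h for 42 members (77.8%) and for 45.9% of all genes, and in Oct4 MO embryos of 44 h for 6 members (11.1%) and 13.4% of all genes.

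Genes that act around these factors were read from 5 lists of 8 to 11 genes. Of all genes, 11.6% passed with Oct4 MO at 44 h (6.18% lower and 5.38% higher), so that 1 gene of 8 is near the background, and the lists are too short for 2 or 3 genes to be read as a result about a list. With Oct4 MO at 44 h, the list of mTORC1 signalling and other control of translation had 2 of 11 genes higher and 1 lower. Mknk2, a kinase of eIF4E (1.09), and Pdcd4, an inhibitor of eIF4A (0.91), rose, and Larp1, which holds mRNAs of the translation machinery (−1.68), fell. Pabpc1, the main poly(A)-binding protein, fell (−0.82) as 1 of 8 of its list. In termination, recycling and rescue, Pelo, a rescuer of stalled ribosomes (−2.30), and Denr fell among 8 genes, and in the modification of eIF5A and eEF2, Dph6, of diphthamide synthesis (−3.76), fell among 8. None of the 10 genes of the eIF2 kinases and the integrated stress response passed with Oct4 MO at 44 h by limma, and 1 had an unadjusted p under 0.05. At 20 h, where 2.02% of all genes passed, Larp1 (−1.49) and Gspt1, a termination factor (−0.91), were lower with Oct4 MO.

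With Sall4 MO at 44 h (3.97% of all genes), Gspt1 (−1.07) and Pelo (−1.66) were lower among these lists. With Nanog MO at 44 h (5.01%), Ppp1r15a, which recruits the phosphatase of eIF2, was higher (1.44, adjusted p = 0.031), as was Mknk2 (0.68, 0.0497). With time in uninjected embryos 25.6% of all genes passed (16.3% lower and 9.28% higher), and the counts that follow lie near enough to it that nothing is read from them about the lists. In that comparison 3 of the 10 stress-response genes fell: Eif2ak4, an eIF2 kinase that senses missing amino acids (−2.15), Ppp1r15a (−2.59) and Trib3 (−2.29). Of the list of mTORC1 signalling and other control of translation, Mtor (−0.91), Mknk2 (−0.74) and Pdcd4 (−0.66) fell and Mlst8 (1.18) rose. Gspt1 (0.72), Abce1, a ribosome-splitting factor (1.10), and Pelo (1.65) rose, and Paip1, a partner of the poly(A)-binding protein (−0.75), fell. Dhps, of hypusine synthesis (1.74), and Dph5 (1.87) rose, while Dph6 (−1.68) fell.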

How the data were processed

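The authors deposited 1 intensity per probe set and array, linear and never negative, for 45101 probe sets and 42 arrays. Amplification used NuGEN kits on PicoPure RNA, per the labels' protocols, and such amplification from small amounts adds spread to dim probes. The software and normalization behind the deposited intensity values are not given in the sources used here. Values ran down to 0.42, and 46022 (2.43%) were exactly 1. Replicates correlated at 0.896 to 0.964 in log2 and none was a copy; their number limits the precision.

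Symbols came from the platform annotation: 34945 had 1 symbol and 932 several, which were left out. Groups came from the titles. Same-numbered arrays deviated together in control MO and uninjected embryos of the Nanog experiment at 20 h (correlations of 0.1113, 0.1202 and 0.1139), a pairing read from the data only. Values were taken as log2(intensity + 16), without further scaling. Genes with a group mean above the table's median of 71.15 in at least 1 group were kept, and limma 3.58.1 in R 4.3.3 was fitted to all 42 arrays with a mean per group (28 residual degrees of freedom) for 14 comparisons. Calls are two-sided at a Benjamini-Hochberg adjusted p under 0.05 over 15478 genes. The code was tested on simulated data. Python 3.11.15 with numpy 2.4.6, pandas 2.3.3 and matplotlib 3.10.9 read the promoters and drew the plots.

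Members, role groups, pathway lists and markers were chosen with earlier results of these data known. Members that passed were named, up to 14 per comparison, or else the 2 of smallest p. Alternatives were quantile, median and trimmed-mean scaling, pseudocounts of 1 and 64, no filter and a filter at the 75th percentile, the mean of all probe sets, a replicate block, each experiment's arrays alone, uninjected embryos as the comparison, and each array left out.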

Additional observations from a re-analysis of the deposited data

How the results depend on the processing

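Counts of members past the threshold moved as follows, and the cause was not tested. For Oct4 MO at 20 h (7), the count was 3 with quantile normalization, 4 with trimmed-mean scaling, 3 with averaged probe sets, 1 with the experiment's arrays alone and 2 to 13 with single arrays left out. For Nanog MO at 20 h (0) it was 1 with quantile normalization, 1 with a pseudocount of 64, 1 with the filter at the 75th percentile and 0 to 1 with single arrays left out, and for Sall4 MO at 20 h (0) 0 to 1. For Oct4 MO at 44 h (12) it was 9 to 12, and for Oct4 MO against Sall4 MO (7) 5 to 8, with single arrays left out. For Sall4 MO at 44 h (2) it was 1 with quantile normalization, 4 with the 75th percentile filter, 4 with averaged probe sets, 0 with the experiment's arrays alone, 5 against uninjected embryos and 2 to 3 with single arrays left out. For Nanog MO at 44 h (1) it was 4 with quantile normalization, 0 with trimmed-mean scaling, 0 with a pseudocount of 1, 4 with 64, 0 without the filter, 5 with averaged probe sets, 0 with the experiment's arrays alone, 3 against uninjected embryos and 0 to 2 with single arrays left out. The time change gave 28 members with quantile normalization and 12 to 18 with single arrays left out in uninjected embryos (18), 26 and 7 to 10 in control MO embryos (11), and 23 and 6 to 9 in Nanog MO embryos (12). A pseudocount of 64 gave 1 member for the difference in time change (0), which was 0 with each array left out.

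Averaging all probe sets of a gene, Eif3h (0.15) and Eif4e (0.10) in Oct4 MO embryos at 20 h and Eif1ax (−0.23) in Sall4 MO embryos at 20 h changed sign. Sall4 in Sall4 MO embryos at 20 h, at 0.00, was -7e-04 with quantile normalization, −0.053 with median centring, −0.028 with trimmed-mean scaling and −0.16 to 0.22 with single arrays left out, and Nanog in Nanog MO embryos at 20 h was −0.79 to 0.16 with single arrays left out, above 0 without control MO array 3. No other called member, or target of an injection, changed sign under the alternatives run for it.

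Deviations from group means of same-numbered arrays of 1 experiment and time correlated at −0.0454 to 0.137, and those of other pairs at −0.099 to 0.0629. Every same-numbered pair was over 0.1 for control MO and uninjected embryos of the Nanog experiment at 20 h, where the block left the count at 0, and for no other comparison. With the number as a block, 10 members passed for Oct4 MO at 20 h, 1 for Nanog MO at 20 h, 12 and 14 for the time change in control MO and Nanog MO embryos, and the other counts kept their values; Eef1a1 lost its time call in uninjected embryos (adjusted p = 0.0573) and another member gained one. Other probe sets were read for 47 pairs of a called member and a comparison, each probe set counting once per comparison. Of these 99 entries, 21 lay on the other side of 0, as did 13 of the 86 whose mean was above the table's median. Genes near the floor are limited by signal over background.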
